A study of Mus musculus with 4 samples.

Results

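Oxidative phosphorylation is carried out by 5 multi-subunit complexes of the mitochondrial inner membrane. Complexes I and II pass electrons from NADH and succinate to ubiquinone, complexes III and IV pass them on to oxygen, and complex V uses the proton gradient built by complexes I, III and IV to make ATP. All but complex II combine core subunits made inside the mitochondrion from its own genome with subunits imported from the cytosol, and the nuclear set also includes assembly factors that do not stay in the finished complex. In the airway, multiciliated cells are known for a high ATP demand from ciliary beating and for mitochondria packed under their apical surface.

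The members are the genes whose symbols name a subunit or a factor of these complexes. They were found by symbol: the prefixes Nduf (complex I), Sdha to Sdhd (complex II), Uqcr (complex III), Cox4 to Cox8 (complex IV) and Atp5 (complex V), and the mt- genes that code for protein. This gave 109 of the 30907 genes in the deposited tables, 96 of them in the nucleus and 13 in the mitochondrial genome. The nuclear members are 46 for complex I, 8 for complex II, 8 for complex III, 18 for complex IV and 16 for complex V, including 12 assembly factors named Ndufaf or Sdhaf. The mitochondrial members are 7 subunits of complex I, cytochrome b of complex III, 3 subunits of complex IV and 2 of complex V. A UMI was found in kept cells for 107 of the 109. Cox8b and Cox8c had none.

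RNA was measured by single-cell RNA sequencing (10x Chromium, polyA RNA) of adult mouse trachea. Both recipients were adult wild type mice that received 2% polidocanol, a detergent that strips the tracheal epithelium, and 5 hours later 6000000 transplanted basal cells through the airway. One was given iBCs, basal cells derived from pluripotent stem cells in culture, and was analysed after 192 days (strain label 129 X1/S1), and the other was given primary basal cells and was analysed after 69 days (strain label C57BL/6). Live Calcein Blue+ cells of each trachea were sorted into GFP+ donor-derived and GFP- endogenous cells, which gives 4 libraries: iBC donor, iBC-recipient endogenous, primary donor and primary-recipient endogenous. Each is 1 library of 1 animal, so that donor cell kind, days, strain label and animal cannot be told apart between the recipients. The uninjured trachea of the protocol was not analysed here.

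The libraries held 21504563, 21813234, 26625123 and 24808125 UMIs in that order, in 1574, 1797, 1809 and 1356 kept cells. Cells were assigned to basal, secretory or ciliated classes by 12 marker genes each, none of them a member, and all 12 were detected in their own class in every library. The cells per class were, for basal, 513, 577, 930 and 459, for secretory 453, 584, 369 and 334, and for ciliated 263, 358, 158 and 191. Of basal cells 24.2%, 23.1%, 9.68% and 20.7% lay within 0.05 of the gate's limit in the same order of libraries, and of secretory cells 19.4%, 3.94%, 8.40% and 8.38%, against at most 1.27% of ciliated cells in any library. Summed UMIs of the 12 secretory markers came to 8072, 20987, 25212 and 29993 CPM (counts scaled to a common total per class sum) in basal cells of the iBC donor, iBC-recipient endogenous, primary donor and primary-recipient endogenous libraries and to 25654 to 31988 CPM in ciliated cells. Among immune markers Lyz2 gave most UMIs in these classes (505, 6611, 9300 and 13524 CPM for the list in secretory cells of the same libraries, of which at most 5.40 CPM came from the other genes). The part of these in the results was not tested.

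Transcripts of the mitochondrial genome took a smaller share of RNA in iBC donor cells than in the endogenous cells beside them in the ciliated and basal classes, and donor and endogenous cells of the primary recipient differed little. In ciliated cells the 13 mitochondrial members took 5.63% of UMIs in iBC donor cells, against 8.17% in endogenous cells of the same trachea. In the other trachea they took 7.48% in primary donor cells and 7.83% in endogenous cells. The iBC donor library was thus the lowest of the 4, and the 2 libraries of the primary recipient lay close together.

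Among basal cells the iBC donor library was again the lowest, with 4.17% in iBC donor cells against 5.12% in endogenous cells, and with 6.34% in both libraries of the primary recipient. In secretory cells the share was 5.08% in iBC donor and 5.12% in endogenous cells, against 7.51% in primary donor and 7.34% in endogenous cells of the primary recipient. With the 12 secretory markers left out of the total, an alternative chosen after seeing the data, these shares became 7.23% in iBC donor and 8.74% in endogenous cells, against 10.4% in primary donor and 10.6% in primary-recipient endogenous cells. Both libraries of the iBC recipient lay below those of the primary recipient on either total, and the gap between donor and endogenous cells of the iBC recipient depended on the total. The exact 95% binomial intervals in ciliated cells were 5.61% to 5.66% in iBC donor and 8.14% to 8.19% in endogenous cells. Like all intervals given here they cover counting error only, and with 1 library a group they say nothing of variation between animals.

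**Figure D1:**
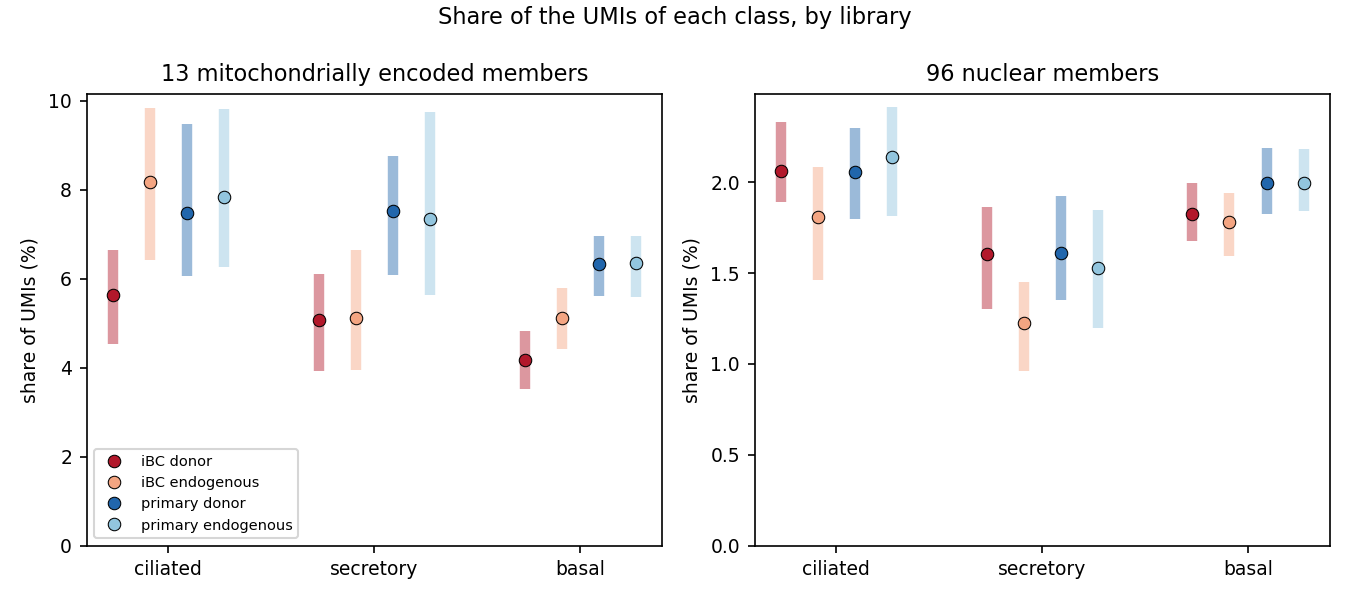
Share of class UMIs (%, y axes from 0) taken by the 13 mitochondrially encoded members (left) and by the 96 nuclear members (right), by class and library. Points are the share in the summed UMIs of the class and bars span the middle 50% of single cells. In ciliated cells the iBC donor point is at 5.63% on the left, below the other libraries at 7.48% to 8.17%, while on the right it is at 2.06% among values of 1.81% to 2.14%.

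Values per cell come from the same cells and libraries, so they describe the spread over cells and are no separate check of the difference. The median ciliated cell gave 5.50% of its UMIs to mitochondrial members in the iBC donor library, against 8.27% in endogenous cells of that trachea, 7.34% in primary donor cells and 7.74% in endogenous cells of the primary recipient. The upper quartile of iBC donor ciliated cells was 6.65%, close to the lower quartile of 6.43% of the endogenous cells beside them. Depth was alike in ciliated cells of the iBC recipient (medians of 11861 and 11820 UMIs per cell in donor and endogenous cells). It was higher in primary donor (17066.5) and primary-recipient endogenous ciliated cells (18754). In basal cells of the iBC recipient it was 9665 in donor and 7738 in endogenous cells. Within the shallower ciliated cells of the iBC recipient the median shares were 6.05% in donor and 9.07% in endogenous cells, within the deeper ones 5.11% and 7.65%. The part of depth was not tested. Cells above 20% mitochondrial UMIs had been removed. They were 0.689% of iBC donor and 2.12% of iBC-recipient endogenous barcodes, and 3.04% of primary donor and 3.66% of primary-recipient endogenous barcodes. A cap of 10%, chosen after seeing the data, kept 251 of 263 donor and 271 of 358 endogenous ciliated cells of the iBC recipient. Their medians were 5.35% and 7.30%, against 6.78% in primary donor and 6.93% in primary-recipient endogenous cells.

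The nuclear share did not follow. In ciliated cells the 96 nuclear members took 2.06% of UMIs in iBC donor cells, 1.81% in endogenous cells of that trachea, 2.06% in primary donor cells and 2.14% in endogenous cells of the primary recipient. In basal cells the nuclear shares were 1.82%, 1.78%, 2.00% and 1.99% in iBC donor, iBC-recipient endogenous, primary donor and primary-recipient endogenous libraries. Secretory cells of the same libraries gave 1.61%, 1.22%, 1.61% and 1.53%, the lowest again in iBC-recipient endogenous cells. That library also had the largest share of its secretory UMIs in the 12 secretory markers, 413981 CPM against 297646 CPM in iBC donor, 275584 CPM in primary donor and 309830 CPM in primary-recipient endogenous cells. With those markers left out of the total, the nuclear share of secretory cells became 2.29%, 2.09%, 2.22% and 2.21% in iBC donor, iBC-recipient endogenous, primary donor and primary-recipient endogenous cells.

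By gene, donor and endogenous ciliated cells of the iBC recipient were compared as CPM of the class sum, on the log2(CPM + 5) scale and relative to the median of all genes with a mean of at least 20 CPM. Log2 ratios and medians are on that scale, while folds and their intervals are relative to the same median but without the pseudocount, so that for low members the fold can lie further from 1 than the log2 ratio gives. Such a comparison sets 1 library against another and has no replicate check. A gene was counted as higher or lower from 1.5-fold upward where the exact 95% counting interval also lay on one side of 1. All 13 mitochondrial members were below 0, with log2 ratios of -0.86 to -0.41 and a median of -0.67, and 8 of the 13 were counted as lower. Over all 6647 genes compared, 10.8% were lower and 6.51% higher. Of the 84 nuclear members that passed the filter none was lower and 4 were higher, with a median log2 ratio of 0.08. Members that passed are those with enough RNA in this class, and not all 96.

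The lowest ratios among the mitochondrial members were those of mt-Nd3, mt-Nd4l and mt-Nd2, complex I subunits that form part of the core of its membrane arm. mt-Nd3 was at 737 CPM in iBC donor and 1276 CPM in endogenous ciliated cells, a centred fold of 0.549 (0.523 to 0.575), while primary donor and endogenous cells had 1124 and 1213 CPM. mt-Nd2 was at 4452 CPM in iBC donor against 7357 CPM in endogenous ciliated cells of that trachea, and at 5461 CPM in primary donor against 5953 CPM in endogenous cells of the other. mt-Nd4 was at 4786 CPM in iBC donor against 7541 CPM in iBC-recipient endogenous cells and at 6227 CPM in primary donor against 6408 CPM in primary-recipient endogenous cells. In mt-Nd3, mt-Nd2 and mt-Nd4 the iBC donor library was the lowest of the 4 and the iBC-recipient endogenous library the highest.

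Of the 3 mitochondrial members of complex IV, its catalytic core, 2 were counted as lower in iBC donor than in endogenous ciliated cells of that trachea. These were mt-Co1 and mt-Co3, while mt-Co2 had a ratio below 0 and was not counted. mt-Co1, which holds the oxygen-reducing centre, was at 8703 CPM in iBC donor against 13712 CPM in endogenous ciliated cells, a fold of 0.604 (0.595 to 0.612), and at 13798 CPM in primary donor against 15017 CPM in primary-recipient endogenous cells. mt-Co3 was at 9755 CPM in iBC donor against 14783 CPM in endogenous cells of that trachea, a fold of 0.628 (0.619 to 0.636). mt-Cytb, the haem protein of complex III, was at 5892 CPM in iBC donor against 7468 CPM in endogenous cells and did not reach 1.5-fold. The same held for mt-Atp6, the channel subunit of complex V, at 10261 CPM in iBC donor against 13843 CPM in endogenous cells. mt-Atp8, whose gene overlaps that of mt-Atp6, was at 237 CPM in iBC donor against 351 CPM in endogenous cells of that trachea, and at 209 CPM in primary donor against 220 CPM in primary-recipient endogenous cells. mt-Nd1 was at 2646 CPM in iBC donor against 3496 CPM in endogenous cells of that trachea, and at 2390 CPM in primary donor against 2447 CPM in primary-recipient endogenous cells. For mt-Atp8 and mt-Nd1 the iBC donor value was therefore above both libraries of the primary recipient, and the iBC-recipient endogenous value stood apart.

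The 4 nuclear members counted as higher in iBC donor ciliated cells belong to complexes I and IV. Cox4i1, the widely expressed form of a regulatory subunit of complex IV, was at 1411 CPM in iBC donor against 894 CPM in endogenous cells, a fold at the limit of 1.5 (1.44 to 1.57), and at 1018 CPM in primary donor against 934 CPM in primary-recipient endogenous cells. Ndufaf3, an early assembly factor of complex I, was at 172 CPM in iBC donor against 105 CPM in endogenous cells (1.56-fold, 1.38 to 1.77), with 150 CPM in primary donor and 157 CPM in primary-recipient endogenous cells. Here the iBC-recipient endogenous value was the low one of the 4. Ndufb6, an accessory subunit of complex I, was at 89.6 CPM in iBC donor against 56.1 CPM in endogenous cells, and Ndufaf2, a later assembly factor, at 33.1 CPM in iBC donor against 17.6 CPM in endogenous cells (1.79-fold, 1.33 to 2.43). Exons of Cox4i1, Ndufaf3, Ndufb6 and Ndufaf2 overlap a gene on the opposite strand (Emc8, Impdh2, Smim27 and B230220B15Rik), and whether counting used the strand is not given in the sources used here, so reads of the partners could be shared.

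In basal cells of the iBC recipient, 4 of the 13 mitochondrial members were counted as lower in donor than in endogenous cells, where the background over 6146 genes was 7.66% lower and 5.94% higher. All 4 were subunits of complex I: mt-Nd2, mt-Nd3, mt-Nd4l and mt-Nd5, with folds of 0.635 to 0.650. The 13 had a median log2 ratio of -0.42 and a range of -0.65 to -0.33. Of the 82 nuclear members that passed, 1 was higher and 1 lower, around a median of -0.09. The higher one was Ndufa4, named as a complex I subunit but known to sit in complex IV, at 511 CPM in iBC donor against 311 CPM in endogenous basal cells (1.52-fold, 1.42 to 1.62).

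In secretory cells of the iBC recipient no mitochondrial member was counted, where 9.46% of 4734 genes were lower and 7.5% higher. Their median log2 ratio of -0.26 depended on the centring: the median of all genes lay at 0.30, and uncentred the value was 0.04. Ndufb6 was the only one of the 82 nuclear members that passed to be counted, at 104 CPM in iBC donor against 50.6 CPM in endogenous secretory cells (1.66-fold, 1.48 to 1.87). Uqcr10, a small subunit of complex III, came next at 583 CPM in iBC donor against 320 CPM in endogenous cells (1.48-fold, 1.41 to 1.55) and stood at 322 to 327 CPM in the primary recipient.

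In the primary recipient, donor and endogenous cells had nearly the same levels of both sets. No member was counted in basal, secretory or ciliated cells, where 0.716%, 1.23% and 1.47% of genes were higher and 0.976%, 1.33% and 0.858% lower. The median log2 ratio of the mitochondrial members was -0.05, -0.04 and -0.04, and that of the nuclear members that passed -0.02, 0.01 and -0.05. The highest member was Ndufa4 in both basal (442 CPM in donor against 358 CPM in endogenous cells) and secretory cells (611 CPM in donor against 488 CPM in endogenous cells), with log2 ratios of 0.28 and 0.25. In secretory cells of the iBC recipient Ndufa4 was at 635 CPM in donor against 392 CPM in endogenous cells and was not counted (log2 ratio 0.39). In ciliated cells it was at 577 CPM in iBC donor against 487 CPM in endogenous cells of that trachea and at 506 CPM in primary donor against 505 CPM in primary-recipient endogenous cells.

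**Figure D2:**
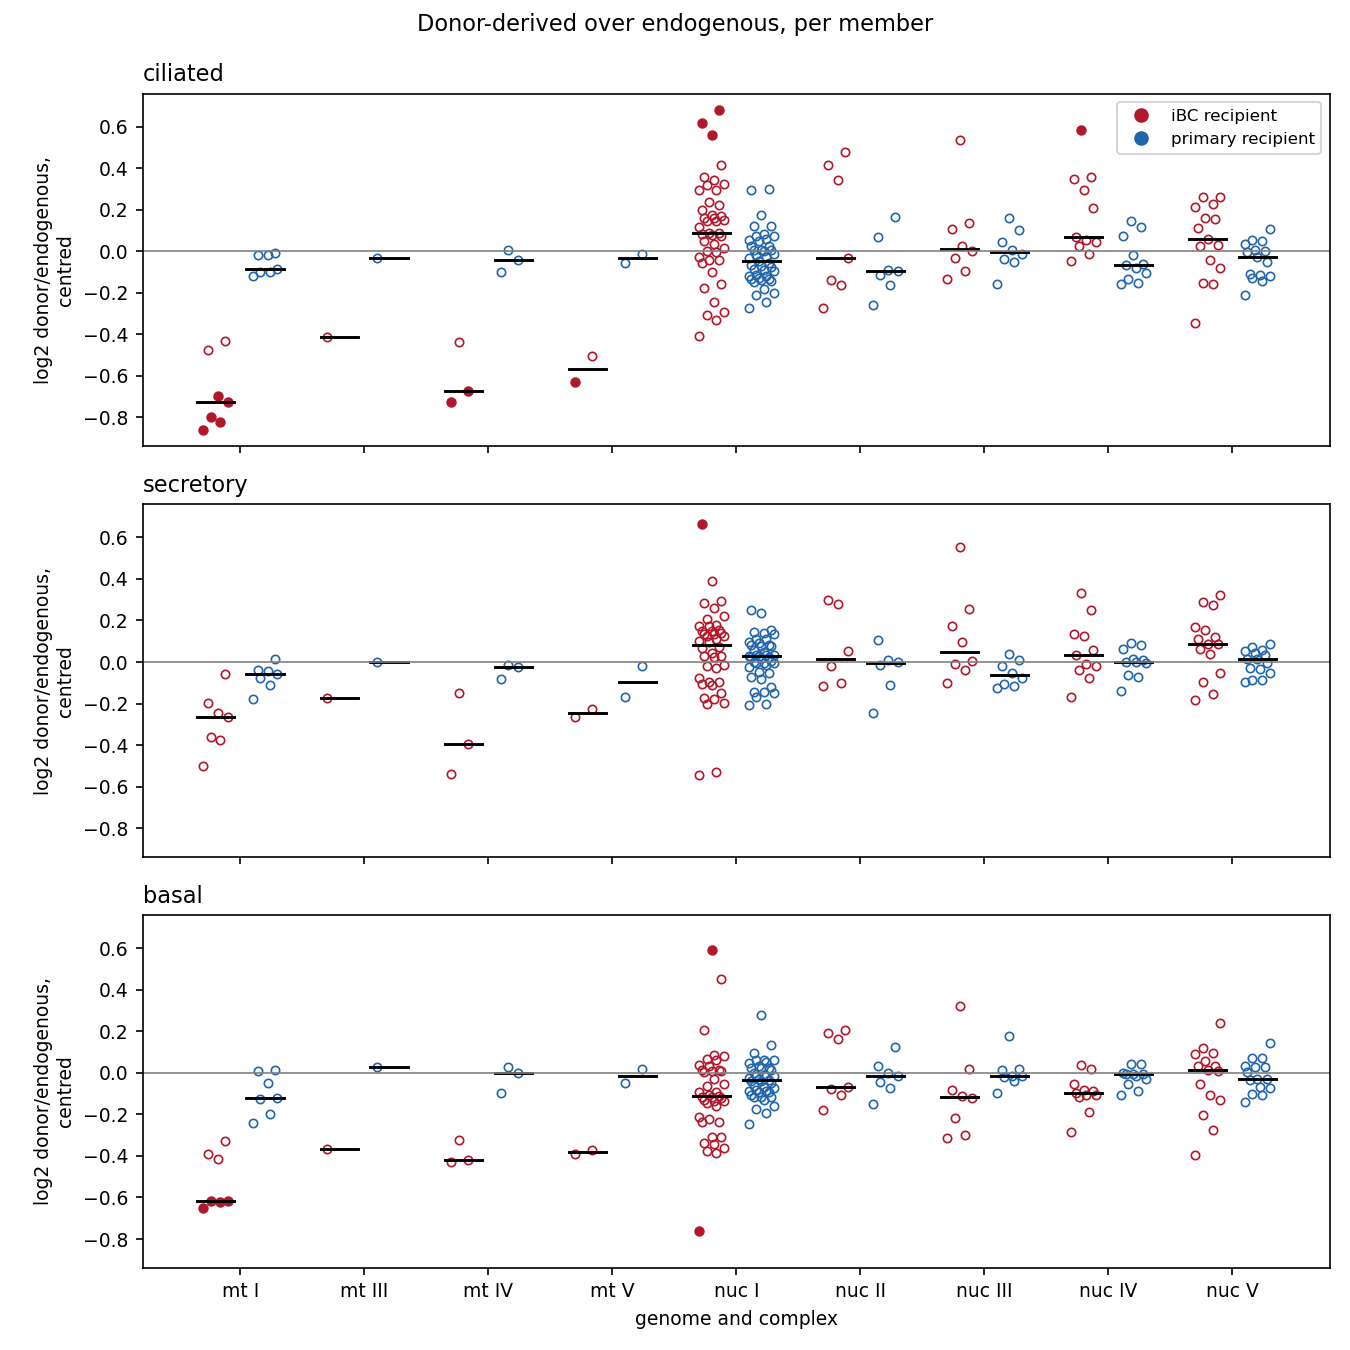
Log2 ratio of donor-derived over endogenous cells per member, relative to the median of all genes (y axes), by genome (mt, mitochondrial; nuc, nuclear) and complex (x axis) in ciliated, secretory and basal cells. Red points are the iBC recipient and blue points the primary recipient, filled where a member is counted as higher or lower, and black lines are medians. The red mitochondrial points in ciliated cells lie between -0.86 and -0.41, all below the blue ones; in secretory cells the position of the red ones depends on the centring (median -0.26 centred, 0.04 uncentred).

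Donor cells of the 2 recipients were then set side by side; this comparison uses the same donor libraries as the ones above and is not independent of them. In basal cells, 9 of the 13 mitochondrial members and 6 of the 82 nuclear ones that passed were lower in iBC donor than in primary donor cells, where 12.3% of genes were lower and 9.53% higher. In secretory cells 7 mitochondrial and 3 nuclear members were lower (13.6% of genes lower, 10.2% higher), and in ciliated cells 2 and 4 (12.5% lower, 8.94% higher). The mitochondrial medians were -0.63, -0.58 and -0.42 on the log2 scale, and the nuclear ones -0.23, -0.07 and -0.09. The nuclear counts were at or below the background in each class, and the mitochondrial count in ciliated cells (2 of 13) was near it.

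Ndufc2, an accessory subunit of the membrane arm of complex I (chr7:97400003-97407802, plus strand, GRCm38), was the lowest member in all 3 classes of iBC donor over primary donor cells. Its levels in basal cells were 61.2 CPM in iBC donor, 98.7 CPM in iBC-recipient endogenous, 149 CPM in primary donor and 140 CPM in primary-recipient endogenous cells. In secretory cells they were 79.4, 94.9, 162 and 146 CPM, and in ciliated cells 164, 198, 323 and 316 CPM, in the same order of libraries. Each class thus had the iBC donor library lowest, the endogenous cells of the same trachea next, and both libraries of the primary recipient above them. The centred folds of iBC over primary donor were 0.393 (0.350 to 0.440) in basal, 0.479 in secretory and 0.486 in ciliated cells.

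Sdhc, a membrane anchor of complex II, was lower in the iBC recipient in donor and endogenous cells alike. Its levels in iBC donor, iBC-recipient endogenous, primary donor and primary-recipient endogenous cells were 49.95, 48.7, 83.0 and 74.6 CPM in the basal class and 49.8, 58.0, 93.1 and 84.0 CPM in the ciliated class. Secretory cells of the same libraries gave 43.5, 33.0, 66.3 and 68.2 CPM. Neither iBC-recipient library reached a value of the primary recipient in any class. Sdhd, the other anchor, had the same split in ciliated cells, at 78.9 and 52.3 CPM in donor and endogenous cells of the iBC recipient against 93.8 and 107 CPM in those of the primary recipient. So had the iron-sulfur subunit Sdhb, at 72.9 and 70.9 CPM in the iBC recipient against 101.0 and 111.6 CPM in the primary recipient, and the flavoprotein Sdha, at 105 and 112 CPM against 143 and 139 CPM.

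Over complex II, the median log2 ratio of iBC over primary endogenous cells was -0.47 in basal (7 nuclear members passed), -0.39 in secretory (6 passed) and -0.44 in ciliated cells (7 passed). Of these, 2, 3 and 2 were counted as lower. The background in the endogenous comparison was 5.45%, 6.91% and 6.3% lower and 4.85%, 5.3% and 6.3% higher. Of all nuclear members that passed, 3, 4 and 6 were lower, and 1, 0 and 1 higher. The mitochondrial members had medians of -0.24, -0.21 and 0.20 in that comparison, so in ciliated cells the endogenous library of the iBC recipient was the one with more. Ndufb7, an accessory subunit of complex I, was higher there too, at 332 CPM in iBC-recipient endogenous against 212 CPM in primary-recipient endogenous cells (1.60-fold, 1.46 to 1.74), while Ndufb5 was lower at 190 CPM in iBC-recipient against 332 CPM in primary-recipient endogenous cells (0.582-fold, 0.532 to 0.637).

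A few nuclear members stood apart in 1 library or 1 recipient. Uqcr10 (chr11:4701973-4704342, minus strand) was highest in iBC donor cells of every class, at 411 CPM in basal, 583 CPM in secretory and 377 CPM in ciliated cells. The other libraries gave 303 to 349 CPM in basal, 320 to 327 CPM in secretory and 231 to 246 CPM in ciliated cells. Its fold over primary donor cells was 1.75 (1.66 to 1.83) in secretory and 1.56 (1.42 to 1.72) in ciliated cells. Atp5b, the catalytic beta subunit of complex V, was at 303 and 368 CPM in ciliated cells of the iBC recipient against 553 and 540 CPM in those of the primary recipient, with a fold of iBC over primary donor of 0.525 (0.485 to 0.568). Ndufa3, an accessory subunit of complex I, was lower in both libraries of the iBC recipient in each class, for instance at 76.4 and 76.9 CPM against 123 and 145 CPM in basal cells; its exons overlap Tfpt on the opposite strand. Ndufaf4, an assembly factor of complex I, ran the other way in basal cells, at 62.9 and 54.2 CPM in the iBC recipient against 34.9 and 35.1 CPM in the primary recipient.

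**Figure D3:**
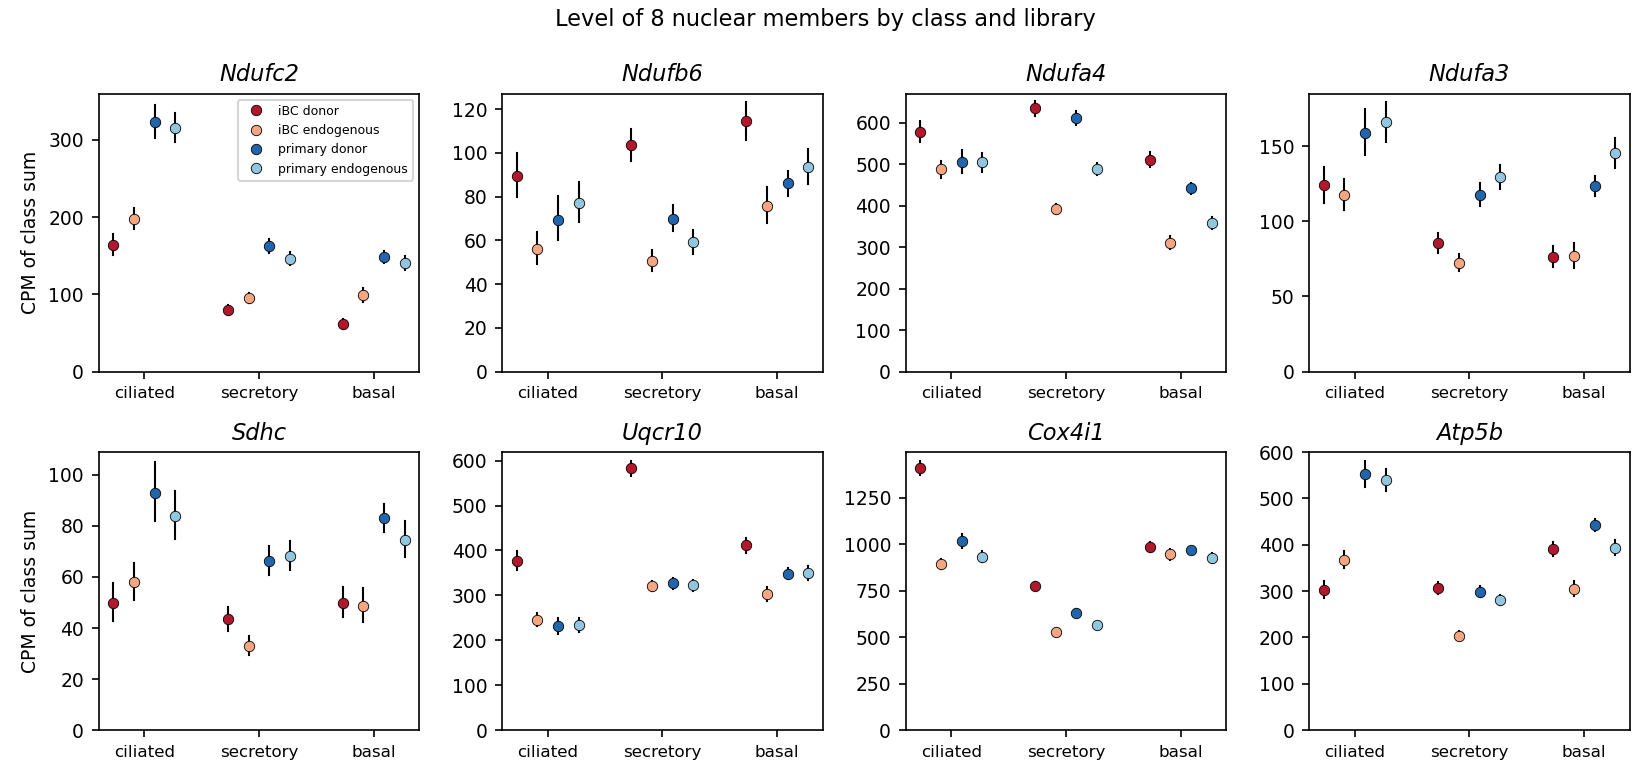
Level of 8 nuclear members (CPM of the class sum, y axes from 0) in ciliated, secretory and basal cells of the 4 libraries; bars are exact 95% Poisson intervals and cover counting error only. Ndufc2 is lowest in iBC donor cells of each class, Sdhc is lower in both libraries of the iBC recipient, and Uqcr10 is highest in iBC donor cells.

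Differences between the classes were tested over the 4 libraries with edgeR's quasi-likelihood test, with the library as a term and Benjamini-Hochberg adjustment over all 12350 genes tested. The 4 libraries come from 2 animals, so these p-values measure the spread between libraries only. Of 103 members tested, 45 rose and 21 fell in ciliated over basal cells, where 34.1% of all genes rose and 34.0% fell. Among the 13 mitochondrial members 8 rose and none fell, with a median log2 fold of 0.34 (0.17 with cells capped at 10% in place of 20% mitochondrial UMIs, an alternative chosen after seeing the data). Among 90 nuclear ones 37 rose and 21 fell around a median of 0.07, against -0.02 over all genes. Leaving out any 1 library gave 53 to 63 members called in place of 66.

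Counts by complex are small and are given beside the background of 34.1% of genes up and 34.0% down; differences between the complexes were not tested. Complexes are assigned by symbol, so that Ndufa4 counts under complex I here. Of 37 nuclear subunits of complex I tested, 19 rose and 9 fell in ciliated over basal cells, and of 4 complex II subunits 2 rose. Complex IV had 5 up and 2 down of 13, complex III 2 up and 3 down of 8, and complex V 3 up and 5 down of 16. Ndufc2 rose by 1.15 ± 0.09 (SE) on the log2 scale (edgeR, adjusted p = 2.2e-06). Ndufab1, the mitochondrial acyl carrier protein that is also a complex I subunit, rose by 1.03 ± 0.08, and its levels were 252 to 331 CPM in the 4 ciliated sums against 122 to 154 CPM in the basal ones. Ndufs4, an accessory subunit needed late in complex I assembly, was at 137 to 181 CPM in ciliated against 59.5 to 87.4 CPM in basal cells. None of these ranges overlapped between the classes. The members were named by their folds or with their values known. How many of all genes have such ranges was not counted, so nothing is read from this.

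Subunits that fell were spread over complexes I, III, IV and V. Ndufa5 fell by 1.18 ± 0.10, with 48.3 to 68.0 CPM in ciliated against 121 to 132 CPM in basal cells. Ndufs8, an iron-sulfur subunit of the electron path of complex I, was at 56.8 to 65.2 CPM in ciliated against 104 to 134 CPM in basal cells. Uqcrc1, a core protein of complex III, was at 69.5 to 95.6 CPM in ciliated against 114 to 159 CPM in basal cells, and Atp5d, a stalk subunit of complex V, at 195 to 216 CPM in ciliated against 298 to 356 CPM in basal cells. Again the ranges did not overlap, with no count over all genes to set beside this, and nothing is read from it. In complex II, Sdha and Sdhd rose by 0.27 ± 0.09 and 0.45 ± 0.09, and Sdhb and Sdhc did not pass, at 0.07 and 0.12.

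The lowest fold of any member was that of Cox7a2l (chr17:83501918-83517330, minus strand), which takes part in joining complexes III and IV into supercomplexes. In iBC donor, iBC-recipient endogenous, primary donor and primary-recipient endogenous libraries it was at 187, 137, 204 and 197 CPM in ciliated cells, against 506, 571, 547 and 574 CPM in basal cells. It fell by 1.64 ± 0.14 (adjusted p = 3.3e-06). It also fell in secretory over basal cells, by 0.90 ± 0.14 (adjusted p = 0.00057), and in ciliated over secretory cells, by 0.74 ± 0.14 (adjusted p = 0.001). On the TMM scale, which sets most genes level between sums, each of the 4 libraries had this order of classes.

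Among the assembly factors of complex I, a pair that acts at the same early step differed in direction. In iBC donor, iBC-recipient endogenous, primary donor and primary-recipient endogenous libraries Ndufaf3 was at 172, 105, 150 and 157 CPM in ciliated cells, against 20.5, 24.9, 33.5 and 31.4 CPM in basal cells, and rose by 2.38 ± 0.16 (adjusted p = 6.8e-07), the highest fold of any member. Ndufaf4, its partner protein, was in the same libraries at 25.6, 18.8, 17.7 and 20.3 CPM in ciliated against 62.9, 54.2, 34.9 and 35.1 CPM in basal cells and fell by 1.18 ± 0.14 (adjusted p = 3.9e-05). The ranges of the classes did not overlap for either gene. Overlap was not counted over all genes, so nothing is read from this either. The exon overlap of Ndufaf3 with Impdh2 applies here too. Ndufaf6 and Ndufaf7 rose by 1.06 ± 0.19 and 0.99 ± 0.15. Of the complex II factors, Sdhaf4 rose (adjusted p = 4.7e-05) with 48.8 to 69.3 CPM in ciliated against 24.0 to 36.6 CPM in basal cells. Sdhaf2 rose by 0.60 ± 0.14, and Sdhaf3 fell by 1.23 ± 0.19 at levels of 3.29 to 5.43 CPM in ciliated and 9.17 to 12.8 CPM in basal cells.

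The c ring of complex V is made from 3 nuclear genes, Atp5g1, Atp5g2 and Atp5g3, that encode the same mature protein. In iBC donor, iBC-recipient endogenous, primary donor and primary-recipient endogenous libraries Atp5g2 was at 362, 309, 347 and 366 CPM in ciliated against 452, 551, 579 and 584 CPM in basal cells, and it fell by 0.67 ± 0.10 (adjusted p = 0.00018). Atp5g1 and Atp5g3 did not pass, at -0.17 ± 0.08 and 0.03 ± 0.07. A difference between the 3 genes was not tested.

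The mitochondrial members did not move as a block in ciliated over basal cells. Folds were highest for mt-Nd4l, mt-Nd5 and mt-Nd4, which rose by 0.96 ± 0.12, 0.82 ± 0.10 and 0.80 ± 0.12. mt-Co1 and mt-Atp8 rose by 0.61 ± 0.11 each, mt-Nd2 by 0.53 ± 0.14, mt-Co3 by 0.34 ± 0.12 and mt-Cytb by 0.32 ± 0.12. mt-Nd1, mt-Nd3, mt-Nd6, mt-Co2 and mt-Atp6 did not pass, with folds of -0.12, 0.08, 0.17, 0.22 and 0.24. mt-Nd4l and mt-Nd4 overlap on the same strand, and the heavy-strand genes are cut from 1 long transcript, so that these folds are not 13 separate measurements of one change. By library, mt-Nd1 had ciliated over basal log2 ratios of 0.10 in iBC donor and 0.23 in iBC-recipient endogenous cells, against -0.45 in primary donor and -0.40 in primary-recipient endogenous cells. For mt-Nd3 they were 0.22 and 0.41 in the iBC recipient against -0.17 and -0.18 in the primary recipient. Those 2 genes therefore differed in sign between the recipients.

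**Figure D4:**
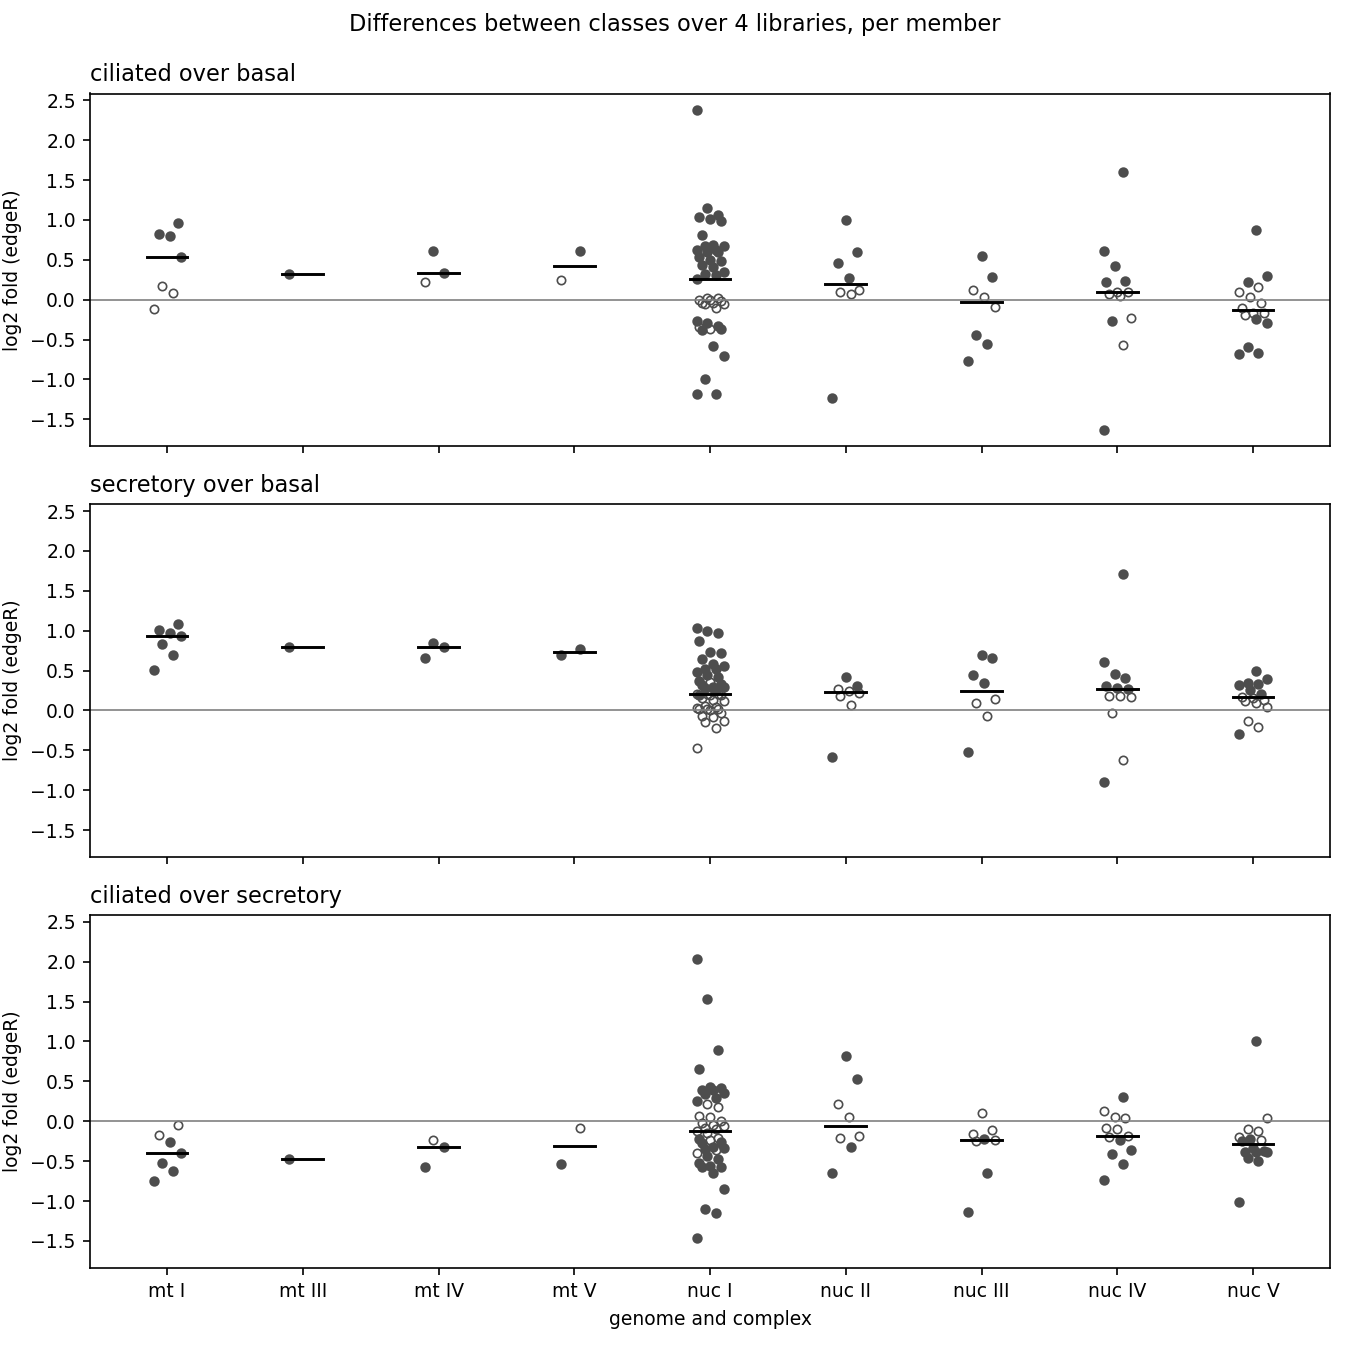
Log2 fold between classes over the 4 libraries (edgeR, y axes) per member, by genome (mt, mitochondrial; nuc, nuclear) and complex (x axis); filled points passed an adjusted p of 0.05 and black lines are medians. Mitochondrial medians are 0.34 in ciliated over basal, 0.79 in secretory over basal and -0.40 in ciliated over secretory cells; the last is 0.23 when libraries are scaled by their totals alone.

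Secretory cells spend much of their RNA on a few secreted products, so the reference for a fold matters here. With TMM scaling 55 members rose and 4 fell in secretory over basal cells, where 21.8% of all genes rose and 20.1% fell, but scaled by library totals alone 8 rose and 63 fell. The median of all genes was -0.02 with TMM and -0.62 with totals alone, and the nuclear members moved with it (0.21 and -0.39). All 13 mitochondrial members rose with TMM (median 0.79), and 3 rose and none fell with totals alone (median 0.19). Without the primary donor library 39 members in place of 59 were called, and 44 to 55 without any other single library.

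Members whose sign in secretory over basal cells was the same on both scales included Ndufa4, which rose by 0.99 ± 0.09, Ndufv3, an accessory subunit of complex I, at 0.98 ± 0.09, and mt-Nd5 at 1.09 ± 0.10. Uqcrc1 fell by 0.52 ± 0.10 and Atp5g2 by 0.30 ± 0.10. Ciliated over secretory cells had 16 members up and 46 down with TMM, where 29.8% of genes rose and 32.2% fell, and 68 up and 5 down with totals alone. Ndufaf3 and Ndufaf6 rose by 2.03 ± 0.16 and 1.53 ± 0.19 and Ndufa5, Ndufs8 and Uqcr10 fell by 1.47 ± 0.10, 1.15 ± 0.08 and 1.13 ± 0.11, with the same sign on both scales.

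Genes around the members were described with lists written with earlier results of these data known. Of 19 genes for maintenance and transcription of the mitochondrial genome, 4 rose and 12 fell in ciliated over basal cells, with a median of -0.52 against -0.02 over all genes, of which 34.1% rose and 34.0% fell. Many of these genes were low, and only 9 of the 19 reached a mean of 20 CPM in basal and 4 in ciliated cells. Tfam, which packages mitochondrial DNA and starts its transcription, fell by 0.85 ± 0.12, and Twnk, the replicative helicase, by 1.88 ± 0.17. The coactivators of mitochondrial biogenesis split, with Ppargc1a up by 2.25 ± 0.22 and Ppargc1b and Pprc1 down by 1.87 ± 0.31 and 1.71 ± 0.22 (each adjusted p at most 0.000391). Of 13 genes for mitochondrial RNA handling none rose and 6 fell, with a median of -0.42, against the same background. Among those that fell was Hsd17b10, a part of mitochondrial RNase P, by 1.28 ± 0.08. Of the 14 genes listed here, 6 reached a mean of 20 CPM in basal and 4 in ciliated cells.

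The mitochondrial ribosome had 19 up and 20 down of 77, the citrate cycle 6 and 6 of 16, and the assembly factors outside the members 10 and 9 of 29. Glycolysis had 7 up and 6 down of 18. Counts of the citrate cycle, the assembly factors and glycolysis were near the background of 34.1% up and 34.0% down, and nothing is read from them. The lactate dehydrogenase genes were picked from the glycolysis list after its values were seen. Ldhb was up by 2.22 ± 0.25 and Ldha down by 1.30 ± 0.15 (edgeR, adjusted p = 2.9e-05 and 3.3e-05). With the counts of that list near the background, this pair is a description only. Of 12 carriers and other inner membrane genes 5 rose and 2 fell, against the same background.

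Promoters were read for the 78 nuclear members with an entry in the RefSeq table (GRCm38.p6). The palindrome of GCGCA and its reverse complement TGCGC, the textbook site of NRF1, a transcription factor known for driving respiratory chain genes, occurred in the 250 bases before the start of 5 of the 78 (6.41%), against 211 of all 27025 promoters (0.781%). CCGGAAG, the core bound by ETS factors such as GABPA, occurred on either strand in 15 of the 78 (19.2%), against 7.05% of all promoters. AAGATGG, a core of YY1, occurred in the same 250 bases in none of the 78 and in 4.53% of all. Bases after the start were not searched, so a match there would be missed. The 5 windows with the palindrome are shown because their genes did not share a direction between the classes; the palindrome is in capitals and each window is written 5′ to 3′ on the strand of the gene. The starts are those of RefSeq, while the gene coordinates come from GENCODE vM21. There Atp5g2 starts further upstream, at 102672352, so that its window lies inside the gene. Atp5k starts at 108434448 there, so that most of its palindrome also lies inside the gene.
Atp5g2, chr15:102671065-102671104, minus strand: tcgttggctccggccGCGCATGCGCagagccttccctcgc
Atp5k, chr5:108434425-108434464, minus strand: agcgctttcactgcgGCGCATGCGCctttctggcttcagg
Cox6a1, chr5:115349096-115349135, minus strand: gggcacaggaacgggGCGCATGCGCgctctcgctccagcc
Ndufa11, chr17:56717687-56717726, plus strand: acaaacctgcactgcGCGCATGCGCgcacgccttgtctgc
Ndufaf4, chr4:24897955-24897994, plus strand: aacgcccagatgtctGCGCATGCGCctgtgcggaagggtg
In ciliated over basal cells Cox6a1 and Ndufa11 rose by 0.43 and 0.50, Atp5g2 and Ndufaf4 fell by 0.67 and 1.18, and Atp5k did not pass at 0.10. A match of letters is a description and not a bound site.

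Most isoforms known from other tissues were near 0 in the 3 classes, while Cox7a1 and Cox6b2 were low but detected. Cox8b and Cox8c had no UMI, and Cox6a2, the heart and skeletal muscle form of a complex IV subunit, had none either, which allows up to 0.112 CPM in basal, 0.0905 CPM in secretory and 0.211 CPM in ciliated cells (3 UMIs of the total). Cox4i2, Cox7b2 and Ndufa4l2 had 7 UMIs or fewer in each class. Cox7a1, a muscle form, rose in ciliated over basal cells by 1.61 ± 0.43 (adjusted p = 0.0071), on 8 to 20 UMIs per library in ciliated and 3 to 20 in basal cells, or 2.11 to 5.43 CPM against 0.496 to 1.94 CPM. Cox6b2, known as a testis form, was at 0.827 CPM in iBC donor basal cells (5 UMIs), against 12.9 CPM in endogenous basal cells of that trachea (59 UMIs) and 7.47 and 8.94 CPM in primary donor and primary-recipient endogenous basal cells (77 and 53 UMIs). Secretory cells had 0.513 CPM in iBC donor cells against 3.63 CPM in endogenous cells of that trachea, and 2.68 CPM in primary donor and 5.28 CPM in primary-recipient endogenous cells, so that iBC donor was the lowest library in both classes and the highest differed.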

How the data were processed

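UMI counts per gene and cell barcode were deposited by the authors for the 4 libraries. The build was GRCm38 and the tools named are Seurat, STARsolo and Cell Ranger, per the submitters' processing notes. Versions, which tool made the counts and whether the strand was used are not given in the sources used here. The deposited barcodes had at least 2910 UMIs.

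Barcodes with under 500 genes or over 20% mitochondrial UMIs and Scrublet doublets (scanpy 1.11.5; 0.689%, 2.86%, 0.533% and 0.985% in iBC donor, iBC-recipient endogenous, primary donor and primary-recipient endogenous libraries) were removed, which left 6536 of 6784. Of all barcodes, 2 occurred in more than 1 library. A cell was basal, secretory or ciliated where the mean of 12 markers, each scaled to its 99th percentile, was at least 0.3 and led by 0.1; these limits were chosen after seeing the data. Cells with 3 hillock, immune, stromal or cycling markers, or 2 ionocyte, tuft or neuroendocrine markers, at 2 or more UMIs were set apart. Gating left 317, 227, 261 and 218 cells unassigned, which entered no comparison.

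UMIs were summed per class and library. Classes were compared with edgeR 4.0.16 in R 4.3.3 (quasi-likelihood test, TMM, filterByExpr, library and class terms, 6 residual degrees of freedom), with DESeq2 1.42.0 as an alternative. Single libraries were compared as CPM with a pseudocount of 5, a minimum mean of 20 CPM and no p-value. Of the members, 95 passed that minimum in basal, 95 in secretory and 97 in ciliated cells. The tests were tried on simulated counts. The 4 comparisons between single libraries share libraries with each other.

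The members and lists were chosen with earlier results of these data known. Named by rule were the mitochondrial members, the Sdh subunits, tissue-restricted isoforms, Atp5g genes, Cox7a2l and the 5 highest and 5 lowest members of a comparison; genes of the other lists and further members were named after their values were seen. All 109 members were found in GENCODE vM21, from which coordinates were taken; 38 have an exon that overlaps another gene, 8 on the same strand. The mitochondrial genome has copies in nuclear DNA, and how reads matching both were counted is not given in the sources used here. Mrpp3 of the RNA handling list had no match. Of the 78 promoters, the bases after the start were found on the sense strand of a transcript of the gene for 62.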

Additional observations from a re-analysis of the deposited data

Results flagged for a closer look

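Log2 ratios of donor over endogenous cells had opposite signs in the iBC and the primary recipient for a few members; each recipient has 1 library per group and the difference was not tested. They were -0.76 and 0.06 for Ndufc2 and -0.62 and 0.01 for mt-Nd4l in basal cells. In ciliated cells they were 0.56 and -0.12 for Ndufb6, 0.62 and -0.05 for Ndufaf3 and 0.68 and -0.09 for Ndufaf2, and the median of the nuclear members was 0.08 and -0.05.

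Differences between classes within a library also took opposite signs in both libraries of each recipient for a few members, again with no test of the difference. In ciliated over basal cells the log2 ratios in the iBC recipient and the primary recipient (donor before endogenous) were 0.10, 0.23 and -0.45, -0.40 for mt-Nd1, and 0.22, 0.41 and -0.17, -0.18 for mt-Nd3. They were -0.03, -0.11 and 0.11, 0.28 for Sdhb and -0.04, -0.04 and 0.10, 0.09 for Atp5g3. For Sdha they were -0.10, -0.05 and 0.15, 0.21 in ciliated over secretory cells.

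A pair of isoforms appeared in cells that entered no comparison. Cox6b2 was at 137 CPM in cells with cycling markers (307 UMIs in 40 of 82 cells), against 7.22 CPM in basal, 3.08 CPM in secretory and 4.79 CPM in ciliated cells. By library the cycling cells had 7.78 CPM in iBC donor (13 cells), 179 CPM in iBC-recipient endogenous (13 cells), 192 CPM in primary donor (16 cells) and 151 CPM in primary-recipient endogenous cells (40 cells). A single cell held 37 of the 45 UMIs of iBC-recipient endogenous, 42 of the 81 of primary donor and 39 of the 178 of primary-recipient endogenous cycling cells. In ciliated cells 48 of the 68 UMIs lay in 7 primary donor cells, 27 of them in 1 cell. Cox6a2 was at 44.3 CPM in cells with immune markers, from 40 UMIs in 6 of 81 cells, all in the 21 of the iBC-recipient endogenous library, with none in the 59 of the primary-recipient endogenous library. Exons of Cox6a2 overlap Itgad on the opposite strand.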

How the results depend on the processing

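Recomputed under each alternative, the main results stayed within a tolerance (counts within 1.5 times) in 226 cases, moved in 20 and reversed in 5. Counts of members called were compared as totals, without their direction. With library totals alone, secretory over basal calls turned from mostly up to mostly down, and ciliated over secretory calls from mostly down to mostly up. Both were still among the cases within the tolerance. Other values were the same in 356 cases, moved in 133 and reversed in 3. Leaving out 1 library gave 53 to 63 members called in ciliated over basal cells, 39 to 55 in secretory over basal (39 without the primary donor library) and 44 to 56 in ciliated over secretory cells. With library totals alone the nuclear median became -0.39 in secretory over basal cells, and in ciliated over secretory cells the nuclear median became 0.43 and the mitochondrial one 0.23; these follow the median of all genes. For donor over endogenous cells of the iBC recipient the uncentred medians were 0.37 (nuclear, secretory), -0.30 (mitochondrial, basal), 0.036 (mitochondrial, secretory) and -0.60 (mitochondrial, ciliated). The mitochondrial median there was -0.36 in basal and -0.19 in secretory cells with a pseudocount of 20, and in secretory cells -0.29 with a pseudocount of 1, with TMM scaling and with means of per-cell CPM, -0.18 with the strict gate and -0.24 with a 10% cap. In ciliated cells it was -0.71 with per-cell means, -0.73 with no cap and -0.58 with a 10% cap. In the primary recipient it was 0.003 in basal cells with the strict gate, and in secretory cells 0.028 uncentred, -0.11 with per-cell means, -0.017 with the strict gate, -0.013 with no cap and 0.0046 with a 10% cap, and 0.014 in ciliated cells with a 10% cap. With no minimum level 2 members in place of 0 were counted there. With a minimum of 50 CPM, 11 in place of 17 were counted for iBC over primary endogenous cells. The median nuclear share over classes and libraries was 1.82%, and 2.11% with the secretory markers left out of the total. The cause was not tested for any other of these. The class test is blocked by library; without that term 51 members were called in ciliated over basal, 43 in secretory over basal and 47 in ciliated over secretory cells, in place of 66, 59 and 62. No paired analysis was possible for donor over endogenous cells because each recipient gives 1 pair of libraries. The smallest class sum, ciliated cells of the primary donor library, held 2761503 UMIs, which limits members of low level. With 1 library a group, no value separates animals from conditions.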

Other observations

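Rarer cells, which entered no comparison, had nuclear shares above those of the 3 classes in some types. Cells with ionocyte markers gave 2.74% of UMIs to the nuclear members in the primary donor library (11 cells) and 3.57% in the primary-recipient endogenous library (9 cells). Cells with tuft markers gave 2.90% in the iBC-recipient endogenous (6 cells), 3.16% in the primary donor (7 cells) and 2.97% in the primary-recipient endogenous library (13 cells). Cells with cycling markers gave 2.24% in iBC donor, 2.48% in iBC-recipient endogenous, 2.58% in primary donor and 2.45% in primary-recipient endogenous cells. The highest nuclear share of a gated class in any library was 2.14%. Their mitochondrial shares were 8.60% and 8.03% in ionocyte-marked cells, 5.73%, 6.15% and 7.22% in tuft-marked cells and 3.55%, 4.13%, 7.02% and 7.04% in cycling cells, in the same order of libraries. In cycling cells too, the iBC donor library was the lowest in mitochondrial share and both libraries of the primary recipient were alike. Cells with immune markers gave 4.14% of UMIs to mitochondrial members in the iBC-recipient endogenous and 4.12% in the primary-recipient endogenous library, with nuclear shares of 1.84% and 1.79%. Each of these values rests on 1 library and at most 59 cells, with no test.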
